A study of Rattus norvegicus with 16 samples.

Results

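Phosphodiesterases, the enzymes that break down the second messengers cAMP and cGMP, were examined together with the genes that make cAMP and carry its signal, in the normal distal colon of rats. With earlier results of these data known, the genes were chosen by a rule on their symbols and not by any measured value. They are the numbered phosphodiesterases (Pde), the adenylyl cyclases (Adcy), the catalytic and regulatory subunits of protein kinase A (Prkac and Prkar), the A-kinase anchoring proteins (Akap), the G protein subunit Gnas, the cAMP-activated exchange factor Rapgef3 and the transcription factors Creb1 and Crem. Of the 62 rat symbols that fit this rule, 54 had a named probe on the array, out of 15159 named genes, and each is represented by its brightest probe over the 16 arrays. The other 8 symbols (Adcy9, Akap11, Akap17b, Akap8-ps1, Pde4c, Pde6c, Pde6g and Rapgef4) matched no named probe and are not analysed here.

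The rats were males of the (ACIxF344)F1-Pirc strain, 97 days old at sampling, with 4 rats in each of 4 groups. Pirc rats carried 1 copy of a germline nonsense allele of Apc (Pirc/+), a model of inherited intestinal adenoma that is present in every cell of the animal, and wildtype rats carried none. In each genotype 4 rats were untreated and 4 had received dextran sodium sulfate (DSS), a polymer that injures and inflames the colon, at 4% in the drinking water from day 40 to day 47 and again from day 54 to day 61. A DSS difference therefore describes tissue taken 36 days after the last DSS.

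Cyclic AMP is made by adenylyl cyclases, which G proteins switch on or off below receptors for prostaglandins, peptides and amines, and it is destroyed by phosphodiesterases. It acts through protein kinase A (PKA), whose regulatory subunits hold the catalytic subunits inactive until cAMP binds, and through the exchange factor that Rapgef3 encodes. Anchoring proteins place PKA at chosen sites in the cell, and CREB-family factors carry the signal to genes. In the colon, cAMP and cGMP are best known for driving chloride and fluid secretion and for restraining inflammatory cells.

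RNA of each rat was hybridised to 1 single-colour Agilent array, and a level here is the log2 signal of a probe minus the log2 75th percentile of its array. That percentile lay between 875.36 and 2194 signal units, and the scanner called 71.11% to 80.32% of spots well above background. Of the 54 members, 34 were well above background on all 16 arrays (63%, against 68.3% of all named genes), 14 on some arrays and 6 (Adcy10, Akap3, Akap4, Akap5, Akap6 and Pde1c) on none. Levels were not compared between probes. Summed markers of colonic epithelium lay between 309 and 421 times the 75th percentile on every array. Other cell types were present too: 4 of 6 measured endothelial markers (among them Pecam1 and Cdh5), 5 of 8 of smooth muscle (among them Myh11 and Des) and 4 of 8 of enteric neurons (among them Chat and Vip) were well above background on all 16 arrays, and Tek, Lmod1 and Nos1 on none. In RNA of such mixed cells, fewer cells of a type and less RNA per cell cannot be told apart. The transcript of Apc itself checks no label, since a nonsense allele can still be transcribed. Its probe differed between Pirc and wildtype rats by 0.02 (log2, standard error 0.15, adjusted p = 0.975) in untreated rats and by -0.82 (standard error 0.15, adjusted p = 0.0033) in DSS-treated rats.

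After DSS, over both genotypes, 13 of the 54 members passed an adjusted p of 0.05 in limma, which is 24.1% of them, against 20.1% of named genes, each by its brightest probe, and 17.2% of all probes. Prkar1a, Prkar2a, Akap5, Pde4b and Adcy8 were higher, and Akap12, Pde7a, Akap8l, Akap7, Pde8b, Pde6d, Akap9 and Pde5a were lower. Of named genes 11.2% were higher and 8.86% lower. Under quantile normalization 3 members were higher and 16 lower, but the median of all probes also moved, from 0.06 to -0.09. The shares of named genes under quantile normalization are not given. All 13 had the same sign on both slides, which hold the same arrays that gave the calls. In Pirc rats alone 14 members passed (25.9%, against 17.6% of named genes and 14.7% of all probes), 5 higher and 9 lower, where 9.47% and 8.15% of named genes were higher and lower. In wildtype rats alone 0 passed in limma (against 4.87% of named genes and 3.84% of all probes). There, 11 of the 54 members and 2825 of the 15159 named genes had an unadjusted p under 0.05 in limma. Adding a minimum of 2-fold left Adcy8, Akap12 and Pde4b over both genotypes (7.58% of named genes), and for these and Pde6b and Pde7a in Pirc rats (9.3% of named genes). The median log2 difference of the 54 members after DSS was -0.03 over both genotypes, where that of named genes was 0.05 and that of all probes 0.06.

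**Figure D1:**
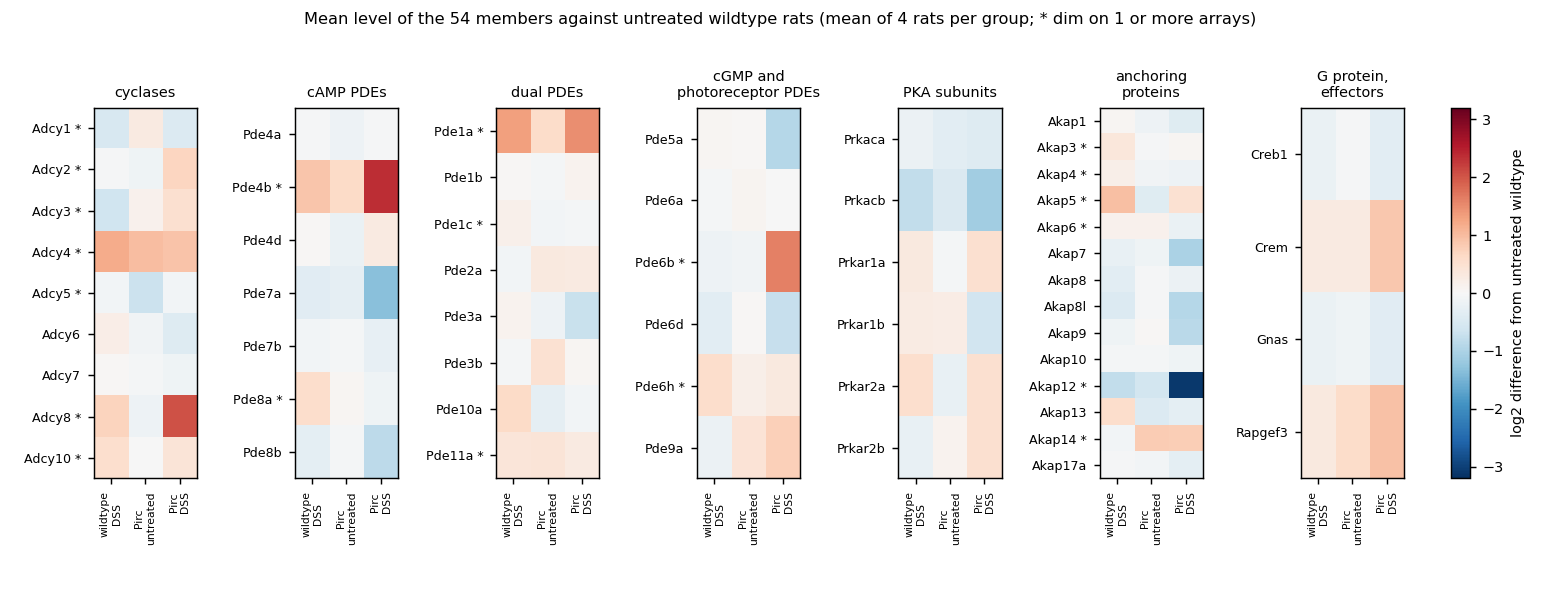
Mean level of each of the 54 members in 3 groups minus its mean in untreated wildtype rats (colour, log2, 4 rats per group), by family. An asterisk marks a member that was not well above background on 1 or more arrays. The strongest colours, for Akap12, Pde4b and Adcy8, stand in the column of DSS-treated Pirc rats.

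Among the 9 adenylyl cyclases, Adcy8, a calcium-stimulated cyclase best known from neurons, was the only one to pass after DSS. Its level in DSS-treated Pirc rats 12, 16, 20 and 24 was -7.18, -6.50, -5.61 and -5.75, and in untreated Pirc rats 11, 15, 19 and 23 it was -8.14, -8.23, -9.09 and -8.36. In DSS-treated wildtype rats 14, 18, 22 and 26 it was -7.62, -7.28, -7.58 and -7.87, and in untreated wildtype rats 13, 17, 21 and 25 it was -7.97, -8.20, -8.65 and -8.33. The DSS-treated and untreated rats did not overlap in either genotype, but the probe was well above background in 3 rats only, the DSS-treated Pirc rats 12, 20 and 24. Where no array of a group measured a probe, a fold is given as a lower bound: the mean of the brighter group against, on each array of the dimmer group, the higher of the probe's own signal and the lowest signal of any probe well above background. By this bound Adcy8 was at least 3.87-fold higher after DSS in Pirc rats (adjusted p = 0.000402) and at least 2.51-fold higher over both genotypes (adjusted p = 0.00036). With a common floor set under all dim values the difference over both genotypes was 0.53 (log2) at an adjusted p of 0.0611.

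The other 8 cyclases did not pass after DSS. Adcy6, a widely expressed cyclase that calcium inhibits, was well above background on all arrays and lower in DSS-treated Pirc than in DSS-treated wildtype rats, with levels of -4.08, -3.54, -4.24 and -3.46 against -3.32, -3.41, -2.99 and -3.13. The 2 groups did not overlap (log2 difference -0.62, standard error 0.19, adjusted p = 0.0354), yet the call was lost when rats 12, 14, 20, 22 or 26 were left out, at adjusted p values from 0.0572 to 0.119. Adcy2 stood out within 1 group: DSS-treated Pirc rats 16 and 24 were at -3.92 and -4.44, while the other 14 rats lay between -6.99 and -5.52. These 2 rats also had the highest summed enteroendocrine markers, 33.2 and 32.6 times the 75th percentile against 14.3 to 24.3 in the other 14, and the part of those cells in the Adcy2 values was not tested. Adcy2 did not pass in any comparison. Adcy1, Adcy3, Adcy4 and Adcy5 were dim on 1 or more arrays, Adcy10 was dim on all 16, and Adcy7 differed by -0.01 (standard error 0.13) after DSS over both genotypes. Under quantile normalization Adcy1 passed as lower after DSS over both genotypes (adjusted p = 0.0196), but it was well above background on 0 DSS-treated arrays. A second Adcy7 probe passed as higher (adjusted p = 0.0323) but was well above background on no array, so no fold is given.

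Among the 7 phosphodiesterases specific for cAMP, Pde4b rose after DSS and Pde7a and Pde8b fell. Pde4b, the rolipram-sensitive enzyme of inflammatory cells, was at -6.04, -6.13, -5.78 and -6.67 in DSS-treated Pirc rats and at -7.96, -8.25, -6.94 and -8.39 in untreated Pirc rats. It was at -7.11, -7.15, -8.21 and -7.99 in DSS-treated wildtype rats and at -8.73, -8.28, -8.75 and -8.27 in untreated wildtype rats. Every DSS-treated rat was thus above every untreated rat of its genotype, though the probe was well above background on 3 and 2 of the 4 arrays of the Pirc groups and on no wildtype array. The DSS difference in Pirc rats was 1.73 (log2, standard error 0.33, adjusted p = 0.00269), and Pirc exceeded wildtype rats at least 2.49-fold among DSS-treated rats (adjusted p = 0.00818). Since both wildtype groups were below background, no fold is given for DSS in wildtype rats.

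Pde7a, a high-affinity cAMP enzyme that rolipram does not inhibit, moved the other way. Its level was -0.47, -0.18, -1.07 and 0.17 in DSS-treated Pirc rats and 0.68, 0.57, 0.91 and 0.44 in untreated Pirc rats. In wildtype rats it was 0.75, 0.24, 0.53 and 0.80 after DSS and 0.54, 1.11, 1.38 and 0.79 without. DSS-treated Pirc rats lay below every other rat, at a DSS difference of -1.04 in Pirc rats (standard error 0.25, adjusted p = 0.011) and a genotype difference of -0.97 among DSS-treated rats (standard error 0.25, adjusted p = 0.0152). A second Pde7a probe, also well above background on all arrays, gave -0.55 for DSS in Pirc rats (standard error 0.40, adjusted p = 0.434). With the 2 probes averaged the call was lost, at -0.79 and an adjusted p of 0.0765.

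Pde8b, another enzyme that rolipram does not inhibit, was at -6.43, -5.97, -6.50 and -6.12 in DSS-treated Pirc rats and at -5.23, -5.45, -5.07 and -6.11 in untreated Pirc rats. These groups overlapped through untreated rat 23, and the difference of -0.79 (standard error 0.24, adjusted p = 0.0363) was -0.43 (adjusted p = 0.424) once spots with an outlier flag were kept. Pde4a and Pde4d, the other measured members of the rolipram-sensitive subfamily, did not pass in any comparison. Pde4a differed after DSS by 0.05 (standard error 0.07) with its brightest probe and by -0.38 (standard error 0.15) with its other probe. Pde4d likewise gave 0.27 (standard error 0.18) and -0.35 (standard error 0.16). For both genes the 2 probes therefore differ in sign, and the difference between probes was not tested. Pde7b (-0.15, standard error 0.14) and Pde8a (0.18, standard error 0.21) did not pass after DSS either, but under quantile normalization Pde7b did, at -0.42 (adjusted p = 0.011) over both genotypes and -0.51 (adjusted p = 0.0291) in Pirc rats.

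**Figure D2:**
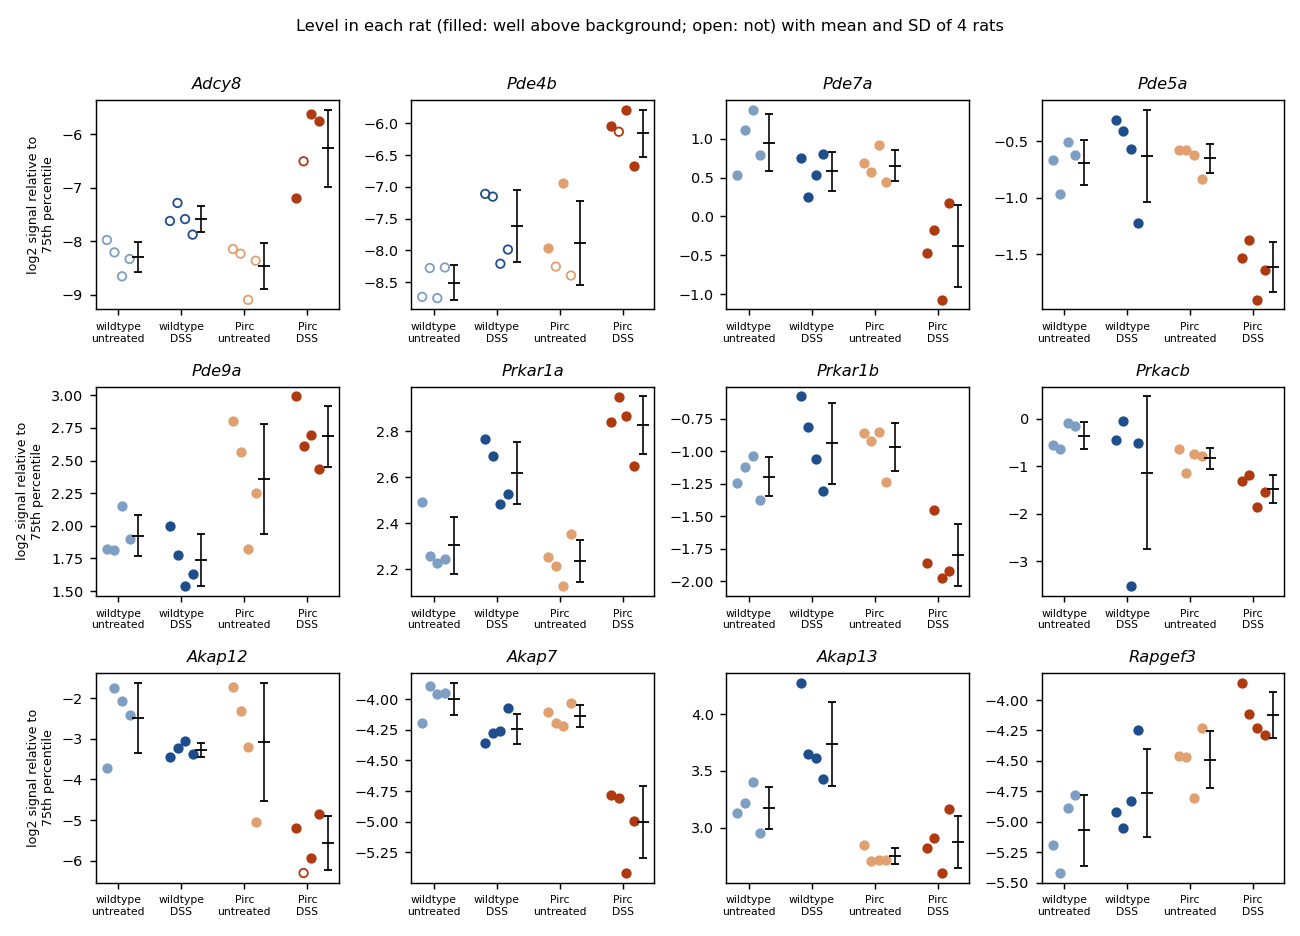
Level of 12 members in each rat (log2 signal relative to the array's 75th percentile), with the mean and SD of the 4 rats of a group. Filled points were well above background and open points were not. DSS-treated Pirc rats lie below the other 3 groups for Pde7a, Pde5a, Prkar1b and Akap7. They lie above them, with open points, for Pde4b and Adcy8. For Prkacb, 1 DSS-treated wildtype rat lies far below the other rats.

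Of the 8 phosphodiesterases that break down both cAMP and cGMP, 0 passed after DSS by the fit used throughout, and some passed under alternatives. Pde1a, a calcium-calmodulin dependent enzyme, came nearest, at 1.11 (log2, standard error 0.37, adjusted p = 0.0552), and was well above background on 7 of 8 arrays after DSS and on 3 of 8 without. It passed when only probes well above background on at least 4 arrays were fitted (adjusted p = 0.0408). It also passed with all probes of a gene averaged (adjusted p = 0.0467). Pde10a, known mainly from the striatum, was at -4.01 and -4.00 in DSS-treated wildtype rats 14 and 18, where the other 14 rats lay between -5.77 and -4.94. These 2 rats also had the highest fibroblast and macrophage marker sums among wildtype rats (15.6 and 8.77, and 26 and 20.4 times the 75th percentile). In DSS-treated Pirc rats these sums were 5.92 to 15.9 and 19.8 to 24.9, with Pde10a between -5.39 and -4.96. The part of these cells in the Pde10a values was not tested. Rats 14 and 18 were on slide 1, while DSS-treated wildtype rats 22 and 26 were on slide 2. With the slide as a block Pde10a passed as higher after DSS over both genotypes (0.41, adjusted p = 0.0244) and as lower in Pirc rats over both treatments (-0.49, adjusted p = 0.0126) and among DSS-treated rats (-0.70, adjusted p = 0.0121), where the fit without the block gave adjusted p values of 0.137, 0.0713 and 0.0681. Within the slides its DSS difference was 0.57 and 0.26. With all probes of a gene averaged and no block, Pde10a also passed as higher after DSS over both genotypes (0.74, adjusted p = 0.0432). Pde1b (0.11, standard error 0.15) and Pde3b (-0.25, standard error 0.15) did not pass after DSS either, though under quantile normalization Pde3b (-0.50, adjusted p = 0.0309) and Pde3a (-0.50, adjusted p = 0.038) passed as lower. Pde11a was well above background on 8 of 16 arrays and Pde1c on none. Over both treatments 2 members of the family differed with genotype. Pde2a, which cGMP stimulates, was higher in Pirc rats (0.33, standard error 0.10, adjusted p = 0.0288), and Pde3a, which cGMP inhibits, was lower (-0.50, standard error 0.15, adjusted p = 0.0339). Both calls were lost without rat 15, 17, 19, 21 or 22, and that of Pde3a also without rat 12, 18, 20 or 25. Among DSS-treated rats Pde3a passed as well (-0.84, standard error 0.22, adjusted p = 0.0157), with levels of -5.80, -5.51, -5.64 and -4.91 for Pirc against -4.76, -4.37, -4.31 and -5.06 for wildtype, with an overlap of rats 24 and 26. That call was lost without rat 12 or 20.

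Pde5a and Pde9a, the enzymes specific for cGMP, moved in opposite directions in DSS-treated Pirc rats. Pde5a, the target of sildenafil, was at -1.53, -1.38, -1.90 and -1.64 in these rats, against -0.58, -0.57, -0.62 and -0.84 in untreated Pirc rats. It was at -0.32, -0.41, -0.57 and -1.22 in DSS-treated and at -0.66, -0.96, -0.51 and -0.62 in untreated wildtype rats. The 4 DSS-treated Pirc rats were below all other 12. In Pirc rats Pde5a fell 1.94-fold after DSS (log2 difference -0.96, standard error 0.19, adjusted p = 0.00334), while in wildtype rats the difference was 0.06 (standard error 0.19, adjusted p = 0.905). The difference between these 2 DSS effects was -1.02 (standard error 0.26) and did not pass (adjusted p = 0.216). It was -1.22 and passed when DSS-treated wildtype rat 26 was left out (adjusted p = 0.0444).

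Pde9a, the enzyme of highest affinity for cGMP, followed genotype and not DSS. Its level was 2.99, 2.61, 2.70 and 2.43 in DSS-treated and 2.80, 2.56, 1.83 and 2.25 in untreated Pirc rats. It was 2.001, 1.77, 1.54 and 1.63 in DSS-treated and 1.82, 1.82, 2.15 and 1.90 in untreated wildtype rats. Among DSS-treated rats the genotypes did not overlap, and Pirc rats were 1.93-fold higher (log2 difference 0.95, standard error 0.19, adjusted p = 0.00559). In untreated rats the difference was 0.44 (standard error 0.19) and did not pass (adjusted p = 0.459), with untreated Pirc rat 19 at the wildtype level. The DSS difference over both genotypes was 0.07 (standard error 0.14).

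The photoreceptor subunits showed 2 changes. Pde6b, a catalytic subunit of the rod enzyme, was at -3.83, -4.86, -4.54 and -4.25 in DSS-treated Pirc rats, above the range of -6.93 to -4.94 in DSS-treated wildtype rats and of -6.75 to -5.31 in untreated Pirc rats. Its DSS difference in Pirc rats was 1.74 (standard error 0.48, adjusted p = 0.0244) with 3 of the 4 untreated arrays well above background, and the call was lost without rat 12, 19, 20 or 23, at adjusted p values from 0.0518 to 0.0741. Pde6d, which chaperones prenylated proteins in many tissues, fell after DSS over both genotypes (-0.55, standard error 0.11, adjusted p = 0.00232). It lay between -2.21 and -1.70 in DSS-treated Pirc rats and between -1.33 and -0.86 in untreated Pirc rats, with no overlap. Pde6a differed by -0.08 (standard error 0.16) after DSS and by -0.43 (adjusted p = 0.0196) under quantile normalization, and Pde6h was dim in most rats.

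**Figure D3:**
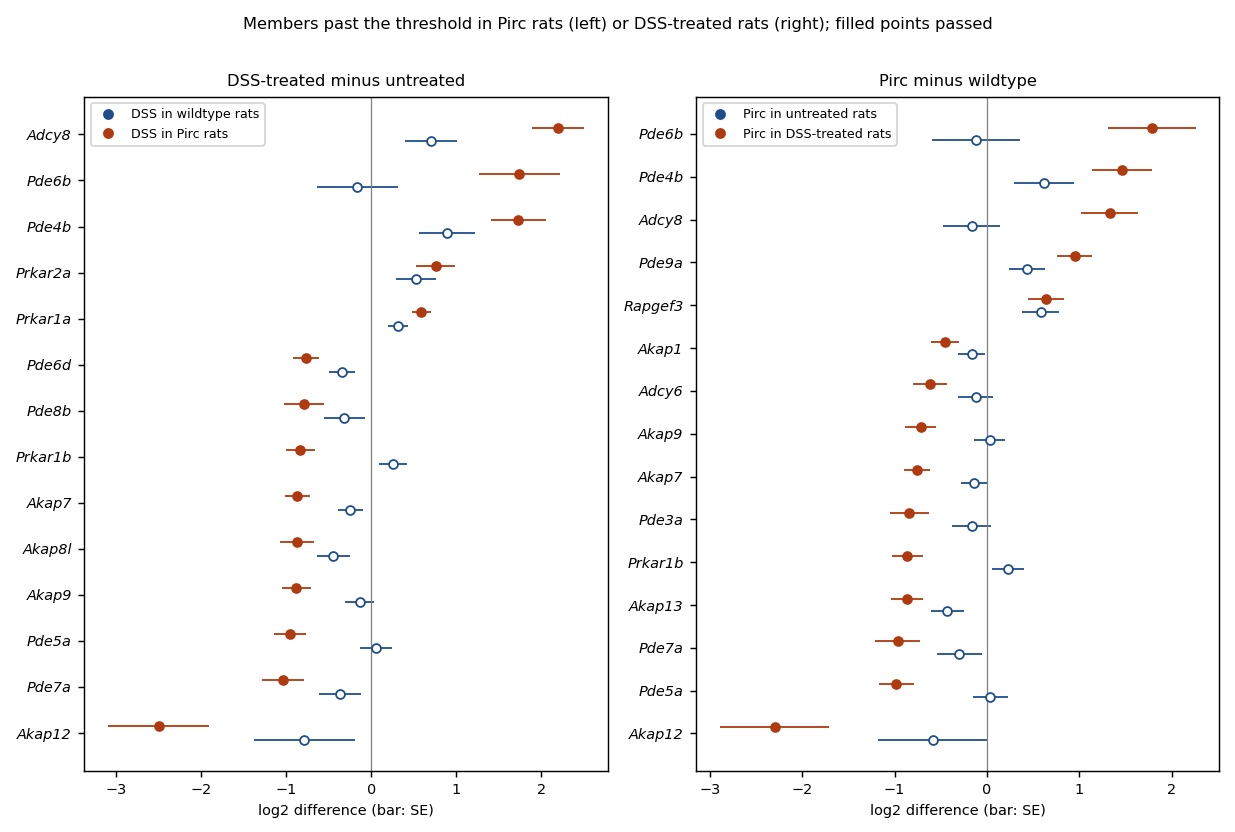
Log2 differences (points) with standard errors (bars). The left panel plots DSS minus untreated for the 14 members that passed in Pirc rats, and the right panel plots Pirc minus wildtype for the 15 members that passed in DSS-treated rats; filled points passed. All open points belong to DSS in wildtype rats or to genotype in untreated rats, where 0 members passed.

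Of the 6 PKA subunits, the regulatory subunits changed in different directions. Prkar1a, the type I alpha subunit, was at 2.84, 2.95, 2.87 and 2.65 in DSS-treated and at 2.25, 2.22, 2.12 and 2.35 in untreated Pirc rats. In wildtype rats it was at 2.77, 2.69, 2.48 and 2.53 after DSS and at 2.49, 2.26, 2.23 and 2.24 without, where untreated rat 13 reached the lowest DSS-treated rats. Prkar1a rose 1.51-fold after DSS in Pirc rats (adjusted p = 0.00323) and 1.37-fold over both genotypes (log2 difference 0.45, standard error 0.08, adjusted p = 0.00134). Prkar2a, the type II alpha subunit, rose over both genotypes as well (0.64, standard error 0.16, adjusted p = 0.0137), but under quantile normalization its value was 0.41 (adjusted p = 0.0849). In Pirc rats alone its call was lost when any rat but 19, 24 or 26 was left out.

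Prkar1b, the type I beta subunit known from brain, fell in Pirc rats after DSS. It was at -1.86, -1.45, -1.98 and -1.92 in DSS-treated and at -0.86, -0.92, -0.85 and -1.24 in untreated Pirc rats, and at -0.58, -0.82, -1.06 and -1.30 in DSS-treated and -1.25, -1.12, -1.03 and -1.37 in untreated wildtype rats. The DSS-treated Pirc rats were again below all other 12. The DSS difference was -0.83 in Pirc rats (standard error 0.17, adjusted p = 0.00429) and 0.26 in wildtype rats (standard error 0.17, adjusted p = 0.516). The difference between the 2 effects, -1.09 (standard error 0.24), had the smallest adjusted p of any member in that comparison, 0.121, and did not pass.

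The catalytic subunits differed with genotype or stood on 1 rat. Prkaca, the main catalytic subunit, was 1.21-fold lower in Pirc rats over both treatments (log2 difference -0.27, standard error 0.07, adjusted p = 0.0189). Its 8 Pirc values lay between 2.70 and 2.93 and its 8 wildtype values between 2.93 and 3.36, and they touched without overlap at Pirc rat 15 and wildtype rat 14. The other Prkaca probe gave -0.26 (standard error 0.11, adjusted p = 0.118). Prkacb was at -3.53 in DSS-treated wildtype rat 22, where the other 3 rats of that group were at -0.45, -0.06 and -0.51, and it did not pass in any comparison of all 16 arrays. Without rat 22 it passed as lower after DSS in Pirc rats (-0.65, adjusted p = 0.0358) and as lower in Pirc than in wildtype rats, both among DSS-treated rats (-1.14, adjusted p = 0.00486) and over the 2 treatments (-0.81, adjusted p = 0.00456). Prkar2b differed by 0.07 (standard error 0.28) after DSS.

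Of the 14 anchoring proteins, 4 fell and 1 rose after DSS. Akap12 (gravin), a scaffold for PKA and protein kinase C, showed the largest fall of the 54 members. It was at -5.18, -6.31, -5.94 and -4.85 in DSS-treated Pirc rats, at -1.73, -2.31, -3.19 and -5.06 in untreated Pirc rats, at -3.44, -3.22, -3.05 and -3.38 in DSS-treated wildtype rats and at -3.71, -1.75, -2.07 and -2.41 in untreated wildtype rats. Untreated rats spread widely, and untreated Pirc rat 23 lay within the range of DSS-treated Pirc rats. The DSS difference in Pirc rats was -2.50 (standard error 0.59, adjusted p = 0.0111), a 5.66-fold fall, with 3 of the 4 DSS-treated arrays well above background. A second Akap12 probe also passed (-2.18, standard error 0.61, adjusted p = 0.0266). Among DSS-treated rats, Pirc lay 2.30 below wildtype on the log2 scale (difference -2.30, standard error 0.59, adjusted p = 0.0163), and this call was lost without rat 20 (adjusted p = 0.0518). Over both treatments the Pirc difference was -1.44 (standard error 0.42, adjusted p = 0.0285), and the call was lost without rat 17, 19, 20, 21 or 22.

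Akap7, a small anchor that tethers PKA near ion channels, was more even. It was at -4.78, -4.81, -5.42 and -5.00 in DSS-treated Pirc rats and between -4.36 and -3.89 in all other 12 rats. Its DSS difference in Pirc rats was -0.87 (standard error 0.14, adjusted p = 0.00108), and its genotype difference among DSS-treated rats was -0.76 (standard error 0.14, adjusted p = 0.00362). Neither difference reached the added factor of 2. Leaving that factor aside, both kept their calls under every alternative in which they were tested.

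Akap8l, a nuclear relative of AKAP95, was at -3.89, -3.49, -3.99 and -3.70 in DSS-treated and between -3.03 and -2.66 in untreated Pirc rats. It fell by 0.87 (log2, standard error 0.20, adjusted p = 0.00856) in Pirc rats, and in wildtype rats DSS-treated rats 14 and 18 were at -3.73 and -3.64 while rats 22 and 26, at -2.93 and -2.92, lay within the untreated range. Rats 14 and 18 were on slide 1 and rats 22 and 26 on slide 2. Akap9, an anchor at the Golgi and centrosome, was at 0.73, 0.90, 0.36 and 1.14 in DSS-treated Pirc rats and between 1.37 and 1.96 in all other 12. Its difference after DSS in Pirc rats was -0.88 (standard error 0.17, adjusted p = 0.00311), but a second Akap9 probe, well above background on all arrays, gave -0.10 (standard error 0.18, adjusted p = 0.812). Akap5 passed as higher over both genotypes (adjusted p = 0.0228), yet it was below background on all 16 arrays and no fold is given.

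**Figure D4:**
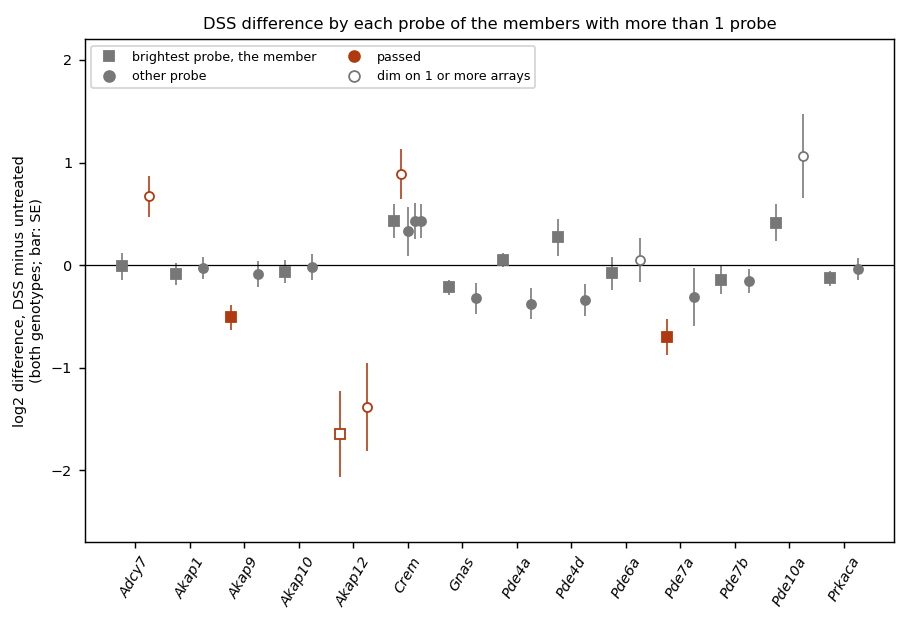
DSS minus untreated over both genotypes (log2, with standard error) for every probe of the 14 members that have more than 1. Squares are the brightest probe, which represents the member, circles are the others, red marks a probe that passed and open symbols mark a probe that was dim on 1 or more arrays. Both Akap12 probes passed, while the probes of Akap9, Pde4a and Pde4d lie apart from each other.

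Akap13, a large anchoring protein, differed with genotype. Its level was 2.82, 2.91, 2.60 and 3.16 in DSS-treated Pirc, 2.85, 2.70, 2.72 and 2.71 in untreated Pirc, 4.28, 3.64, 3.61 and 3.43 in DSS-treated wildtype and 3.13, 3.22, 3.40 and 2.95 in untreated wildtype rats. The genotypes did not overlap within either treatment. Over both treatments Pirc rats were 1.57-fold lower (log2 difference -0.65, standard error 0.12, adjusted p = 0.00398), at -0.87 among DSS-treated rats (adjusted p = 0.00534) and -0.43 in untreated rats (standard error 0.18, adjusted p = 0.416). Akap1, the mitochondrial anchor, was lower in Pirc among DSS-treated rats at the edge of the threshold (-0.45, standard error 0.15, adjusted p = 0.0485), and the call was lost when any rat but 18 or 24 was left out. Akap8 (-0.24, standard error 0.09), Akap10 (-0.06, standard error 0.11) and Akap17a (-0.15, standard error 0.10) did not pass after DSS, though Akap8 did under quantile normalization (-0.27, adjusted p = 0.0285), and Akap3, Akap4, Akap6 and Akap14 were dim on most or all arrays.

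Among Gnas and the effectors, 0 of 4 passed after DSS and 1, Rapgef3, differed with genotype. Rapgef3, which encodes the cAMP-activated Rap exchange factor EPAC1, was at -3.86, -4.12, -4.23 and -4.28 in DSS-treated and -4.46, -4.47, -4.80 and -4.23 in untreated Pirc rats, and at -4.92, -5.05, -4.83 and -4.24 in DSS-treated and -5.19, -5.42, -4.89 and -4.78 in untreated wildtype rats. Most Pirc rats were above most wildtype rats, with wildtype rats 25 and 26 inside the Pirc range. The difference over both treatments was 0.61 (standard error 0.14, adjusted p = 0.00897), a 1.53-fold higher level, and 0.92 and 0.30 within the 2 slides. Among DSS-treated rats it was 0.64 (standard error 0.20, adjusted p = 0.0354), a call lost without rat 12, 14, 18, 20 or 22. Gnas, the stimulatory G protein subunit, lay between 5.24 and 5.48 in DSS-treated and between 5.46 and 5.65 in untreated Pirc rats. Its DSS difference over both genotypes was -0.22 (standard error 0.07), just outside the threshold (adjusted p = 0.0516), and it passed as lower under quantile normalization. Creb1 differed after DSS by -0.25 (standard error 0.10, adjusted p = 0.0826), and by -0.30 (adjusted p = 0.0186) under quantile normalization.

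Crem encodes activators and, from a promoter inside the gene, a short repressor that cAMP induces and that in turn restrains the same targets. Promoter windows of the current rat assembly (RefSeq, GRCr8, 250 bases before to 50 after a gene's start) were matched to 44 of the 54 members, 62 windows in all, and searched for the cAMP response element TGACGTCA, which reads the same on both strands. It was found in 3 windows of members (4.84%), against 2.56% of the windows of named genes, and 2 of the 3 belong to Crem. These are the 250 bases before the start in each, plus strand, with the element in capitals. They are shown because Crem has 5 probes here, and binding of CREB to them was not measured.
Crem, chr17:58984547-58984796: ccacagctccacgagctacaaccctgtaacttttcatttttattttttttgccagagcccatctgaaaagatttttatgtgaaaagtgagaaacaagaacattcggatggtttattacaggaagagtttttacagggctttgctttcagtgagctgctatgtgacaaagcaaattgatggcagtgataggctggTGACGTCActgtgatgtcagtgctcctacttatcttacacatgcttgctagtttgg
Crem, chr17:58985240-58985489: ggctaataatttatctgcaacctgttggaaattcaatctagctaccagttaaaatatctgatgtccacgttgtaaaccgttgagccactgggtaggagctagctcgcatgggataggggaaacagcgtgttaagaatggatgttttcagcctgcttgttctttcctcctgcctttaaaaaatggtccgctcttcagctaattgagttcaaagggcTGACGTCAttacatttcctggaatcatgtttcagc
The element begins 56 bases before the start in the first window and 35 before it in the second. The shorter motif TGACG, counted on both strands and also within the full element, was in 27.4% of the members' windows and in 26.3% of those of named genes, and the windows of Pde4b, Akap12, Akap7, Pde5a and Prkar1a held none.

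Crem RNA was at -1.73, -1.91, -0.85 and -2.04 in DSS-treated and -2.40, -2.26, -2.005 and -2.17 in untreated Pirc rats, and at -2.08, -1.87, -2.71 and -2.16 in DSS-treated and -2.64, -2.61, -2.41 and -2.28 in untreated wildtype rats. Rat 20 was the highest and DSS-treated wildtype rat 22 the lowest. The DSS difference over both genotypes was 0.43 (standard error 0.17) and did not pass (adjusted p = 0.0974). All 5 Crem probes had a positive difference, from 0.33 to 0.89 on the log2 scale. The one that passed, at 0.89 (standard error 0.24, adjusted p = 0.019), was well above background on 3 of 16 arrays. Which transcript each probe reads was not settled from the files.

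Between genotypes over both treatments, 11 of the 54 members passed (20.4%, against 18.2% of named genes and 17.5% of all probes), a share near the background. Of named genes 8.79% were higher and 9.42% lower. The 4 that were higher in Pirc rats were Pde2a, Rapgef3, Pde9a and Pde4b, and the 7 that were lower were Akap12, Akap13, Pde7a, Pde3a, Pde5a, Akap7 and Prkaca. Among DSS-treated rats 15 passed (27.8%, against 18.8% of named genes and 18.2% of all probes), 5 higher and 10 lower, where 8.81% and 9.99% of named genes were higher and lower. With a factor of 2 as well, Akap12 and Pde4b remained over both treatments (2.39% of named genes), and Adcy8, Akap12, Pde4b and Pde6b among DSS-treated rats (6.39%). In untreated rats 0 passed, as did 0 of all 30367 probes. There, 7 of the 54 members and 1635 of the 15159 named genes had an unadjusted p under 0.05 in limma. The largest of these 7 differences among members measured on all arrays was Rapgef3 at 0.58 (standard error 0.20, adjusted p = 0.326), and the smallest adjusted p was that of Prkaca (-0.34, standard error 0.10, adjusted p = 0.283).

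The comparisons within Pirc rats and among DSS-treated rats share the DSS-treated Pirc rats, so their lists are not independent. Side by side, Pde5a gave -0.96 and -0.98, Pde7a -1.04 and -0.97, Prkar1b -0.83 and -0.86, and Akap7 -0.87 and -0.76. Whether DSS acted differently in the genotypes was tested directly, and 0 members passed (against 0.0594% of named genes and 0.0428% of all probes). In limma, 7 of the 54 members had an unadjusted p under 0.05, as did 1777 of the 15159 named genes. These 7 members were Prkar1b, Pde5a, Adcy8, Akap9, Akap7, Pde6b and Pde3a. A call in Pirc rats beside none in wildtype rats is therefore not a shown difference between the genotypes.

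Cell type markers moved with the same groups. Summed neutrophil markers were 9.27 to 37.9 times the 75th percentile in DSS-treated Pirc rats, 1.02 to 4.47 in DSS-treated wildtype rats and 0.47 to 1.86 in untreated rats, with Elane below background throughout. This sum is dominated by S100a8 and S100a9, which were higher in Pirc among DSS-treated rats (2.82, adjusted p = 0.00712, and 3.25, adjusted p = 0.00103), as was Camp (0.81, adjusted p = 0.0308). The other 4 of the 7 measured markers did not pass there, with Csf3r at 1.12, Cxcr2 at 0.44, Itgam at -0.17 and Elane at 0.02. Fibroblast and matrix markers were 5.92 to 15.9 in DSS-treated Pirc, 2.84 to 15.6 in DSS-treated wildtype and 1.52 to 2.92 in untreated rats, and macrophage markers were 19.8 to 24.9, 13.5 to 26 and 9.89 to 15.5. Markers of stratified and urothelial epithelium were 13.9 to 77.8 in DSS-treated Pirc rats, 33.6 in DSS-treated wildtype rat 22, 0.376 to 4.46 in the other 3 rats of its group and 0.299 to 0.489 in untreated rats, with Upk2 below background throughout. Goblet cell markers were 75.4 to 202 in DSS-treated Pirc rats and 172 to 255 in the others. Of its 6 measured markers, Clca1 passed as lower (-1.97, adjusted p = 0.00544) and Spdef as higher (0.45, adjusted p = 0.0355) in Pirc among DSS-treated rats. Markers of colonic epithelium were 313 to 350 in DSS-treated Pirc, 365 to 421 in DSS-treated wildtype and 309 to 395 in untreated rats. Those of absorptive colonocytes were 119 to 213, 221 to 276 and 111 to 226. Among DSS-treated rats 3 of 6 and 3 of 8 of these markers were lower in Pirc and 0 higher, where 9.99% of named genes were lower. Smooth muscle markers stood out in wildtype rats 25 and 26 (9.32 and 14.1, against 2.62 to 5.69 in the others). Without these 2 rats, left out together after the data were seen, 11 members passed after DSS and 13 in Pirc rats after DSS (shares of named genes not given). The part of these cells in the differences of the members was not tested.

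Receptors above the cyclases changed in both directions. The counts of this and the other pathway lists are by the brightest probe of each gene, stand against 20.1% of named genes that passed after DSS and 18.2% with genotype, and carry no test of a list. Of 26 measured receptors that raise cAMP, 5 rose and 2 fell after DSS. Gcgr, the glucagon receptor, fell by 2.27 (log2, standard error 0.15, adjusted p = 3.1e-06) and was lower in each genotype. Sctr, the secretin receptor, was at least 2.78-fold higher (adjusted p = 0.00387), and Adora2a, an adenosine receptor that restrains leukocytes, at least 2.69-fold higher (adjusted p = 0.0017). Of 22 measured receptors that lower cAMP, 2 rose and 5 fell. Adra2a, an adrenergic receptor, had a difference of 2.51 (standard error 0.45, adjusted p = 0.00138) with 5 of 8 DSS-treated and 1 of 8 untreated arrays well above background. Ptger3, a prostaglandin E2 receptor, fell by 1.94 (standard error 0.21, adjusted p = 3.29e-05) and Npy1r, a neuropeptide Y receptor, by 1.34 (standard error 0.24, adjusted p = 0.00116), and the treated and untreated rats did not overlap for either, with 6 and 7 of the 8 DSS-treated arrays well above background. With genotype, 0 rose and 1 fell of the first list, Gcgr (-0.47, standard error 0.15, adjusted p = 0.0468), and 1 rose and 5 fell of the second, among them the somatostatin receptor Sstr2 (-1.60, standard error 0.17, adjusted p = 0.000199) and the short-chain fatty acid receptor Ffar3 (-1.07, standard error 0.17, adjusted p = 0.00195), which was well above background on 4 of 8 Pirc arrays.

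The other lists of the pathway held smaller counts. Of 6 G protein genes, Gnai3 was higher (0.26, standard error 0.07) and Gnal lower (-0.37, standard error 0.11) after DSS, and Gnai2 (-0.52, standard error 0.08, adjusted p = 0.00177) and Gnai3 (-0.24) were lower in Pirc rats. Of 12 PKA inhibitors, PKA-like kinases and CREB cofactors, 2 rose and 1 fell after DSS: the kinase inhibitor Pkib rose by 0.63 (standard error 0.14, adjusted p = 0.00672), the kinase Prkx by 0.39 (standard error 0.09, adjusted p = 0.00753), and the inhibitor Pkig fell by 0.63 (standard error 0.10, adjusted p = 0.00049). Pkig was also lower in Pirc rats (-0.49, standard error 0.10). Of 18 genes known as CREB targets, 2 rose and 4 fell after DSS, with Nr4a3 at 2.30 (standard error 0.57, well above background on 5 of 8 and 2 of 8 arrays), Pck1 at -1.35 (standard error 0.35) and Sst at -1.06 (standard error 0.22). In Pirc rats 0 were higher and 2 lower, Pck1 (-1.50) and Ppargc1a (-0.86).

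Of 19 measured genes of the cGMP pathway, 4 rose and 2 fell after DSS. Nppb, the natriuretic peptide BNP, was at least 12.3-fold higher over both genotypes (adjusted p = 0.000227) and at least 53.2-fold higher in Pirc rats (adjusted p = 0.000237). Npr1, a receptor cyclase for natriuretic peptides, rose by 1.10 (log2, standard error 0.14, adjusted p = 0.000133) and Irag1, a substrate of the cGMP-dependent kinase, by 1.26 (standard error 0.34, adjusted p = 0.0169). With genotype, Guca2a, the secretory peptide guanylin, was lower in Pirc rats without overlap (-0.96, standard error 0.13, adjusted p = 0.000725), and Nppb and Gucy1a2 passed as higher on few measured arrays. Of 9 exporters and channels, Abcc4, which pumps cAMP out of cells, rose after DSS (0.76, standard error 0.13, adjusted p = 0.00121) and was higher in Pirc rats (0.55, standard error 0.13, adjusted p = 0.0128), and the potassium channel gene Kcnq1 fell after DSS (-0.66, standard error 0.11). In Pirc rats Kcne3 (0.46) was also higher and Hcn2 (-0.96) and Hcn3 (-0.41) were lower.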

How the data were processed

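RNA of normal distal colon from 16 rats was labelled with Cy3 and hybridised to single-colour Agilent arrays. The authors deposited 1 scanner table per rat, made with Agilent Feature Extraction 10.7.3.1. Its processed signal, used here, is a linear intensity with background removed and without scaling between arrays, and the deposited median foreground and background intensities served 1 alternative. Per the labels, Partek was used for later steps, whose output is not used here.

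Each array holds 62976 spots, of which 4259 controls were left out. The rest belong to 30367 probes. The log2 signal minus the log2 75th percentile of the array was taken for every spot and averaged within each probe, leaving out outlier-flagged spots. Where all spots of a probe carried the flag (25 values) they were kept. Probes carry accessions and no gene names, so 18006 were named through a RefSeq gene table of GRCr8 (15159 symbols) and 12361 were not. The arrays were designed on rn4, so no probe coordinates are given. A probe is called well above background where at least as many of its spots carry the scanner's flag for this as lack it. No spot was saturated.

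Differences were fitted by limma 3.58.1 (R 4.3.3) with a mean for each group over the 16 arrays and moderated variances, and p-values were adjusted by Benjamini-Hochberg over all 30367 probes, with no filter on dim probes. A gene passed, and is said to rise or fall, at an adjusted p of 0.05 or less. The 7 comparisons are the DSS difference averaged over genotypes and within each genotype, the Pirc difference averaged over treatments and within each treatment, and the DSS difference in Pirc minus that in wildtype rats. Each replicate is 1 rat, and precision is limited by having 4 arrays in a group. The script was tested on simulated data. Marker sums add the linear signals of a list relative to the 75th percentile.

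Members, gene lists and alternatives were chosen with earlier results of these data known. Named are Pde4a, Pde4b, Pde4d, Prkaca, Creb1 and Rapgef3, the members that passed in a comparison (at most 15 in each), and up to 3 genes of each pathway list. Other genes with values were named after these were seen. The arrays came from 2 slides, with 2 rats of each group on both. Since every group occupies its own array column, column and group cannot be told apart.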

Additional observations from a re-analysis of the deposited data

Results flagged for a closer look

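Within groups of 4 rats, the highest or lowest rat was compared with the spread of the others for all 54 members, 216 groups in all. In 9 of them 1 rat stood farther off than Dixon's limit for 4 values, and chance at 1 in 20 would give 10.8. Prkacb was at -3.526 in DSS-treated wildtype rat 22, where the other 3 rats of the group were at -0.51 to -0.06. Adcy7 was at -4.289 in DSS-treated wildtype rat 18, against -4.72 to -4.67, and at -4.324 in untreated Pirc rat 15, against -4.84 to -4.79. In values below background, Adcy1 was at -7.592 in DSS-treated Pirc rat 16, against -8.29 to -8.21, and Akap14 was at -9.061 in DSS-treated wildtype rat 22, against -7.43 to -7.11, of which rat 14 alone was well above background. Akap13 was at 2.851 in untreated Pirc rat 11, where the other 3 rats of the group were at 2.70 to 2.72. Pde5a was at -0.838 in untreated Pirc rat 23, against -0.62 to -0.57 in the others. Prkaca was at 2.926 in DSS-treated wildtype rat 14, against 3.01 to 3.02. Prkar1a was at 2.491 in untreated wildtype rat 13, against 2.23 to 2.26.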

How the results depend on the processing

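The counts of members in this section carry no share of named genes under the same alternative. A change in a count therefore cannot be told from a change over the whole array. No paired analysis was possible because the groups share no replicate numbers. Each row of a slide holds 1 rat of every group, and with slide and row as blocks 14 members passed for DSS over both genotypes, 14 for it in Pirc rats, 13 for the Pirc difference averaged over treatments and 16 for that among DSS-treated rats, with Pde10a gained in all but the second of these and Akap1 in the third. Every member that passed in these comparisons had the same sign within both slides, with Akap12 at -3.73 and -1.27 for DSS in Pirc rats and Adcy8 at 1.34 and 3.04. The slides hold the same arrays that gave the calls, so equal signs are no separate check. Without 1 rat at a time, the number of members that passed ranged from 11 to 16 for DSS over both genotypes (13 with all rats), from 11 to 15 for DSS in Pirc rats (14), from 0 to 2 for DSS in wildtype rats (0), from 6 to 14 for the Pirc difference over both treatments (11), from 0 to 0 for Pirc in untreated rats (0), from 10 to 15 for Pirc in DSS-treated rats (15) and from 0 to 1 for the difference of the DSS effects (0). Untreated wildtype rat 21 gave the 6, losing Akap12, Pde2a, Pde3a, Pde5a and Pde7a, and Pirc_DSS rats 12 and 20 gave the 10. For DSS in wildtype rats, leaving out WT_DSS rat 22 gave 1 call (Pde1a) and WT_DSS rat 26 gave 2 (Pde10a and Akap13). Rat 26 also gave the 1 call of the difference (Pde5a).

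A factor of 2 in addition to the adjusted p left 3 members for DSS over both genotypes, 5 for it in Pirc rats, 2 for the Pirc difference averaged over treatments and 4 for that among DSS-treated rats. Normexp with an offset of 50 and quantile normalization gave 20 for DSS over both genotypes and 2 (Akap7 and Prkar1a) for DSS in wildtype rats. Fitting only the compared groups gave 7 for Pirc in DSS-treated rats. Quantile normalization moved the median of all probes for DSS from 0.06 to -0.09 and turned the split of calls from 5 higher and 8 lower into 3 higher and 16 lower; of its 19 members, 11 were among the 13. Normexp gave 4 higher and 16 lower. Leaving the factor of 2 aside, 7 of 13, 9 of 14, 6 of 11 and 5 of 15 members kept their calls under every other alternative in which they were tested. The order is that of the comparisons given for the factor of 2.

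The sign turned for Pde4a (-0.164) and Pde4d (-0.037) for DSS over both genotypes with all probes of a gene averaged. Pde4d between genotypes, at 0.01, turned to -0.026 under quantile normalization, -0.016 under normexp and -0.003 with median scaling, and ranged from -0.096 to 0.105 without 1 rat at a time, below 0 without 6 of the 16. Adcy6 among DSS-treated rats lost its call without rats 12, 14, 20, 22 or 26. No count of members that passed moved by over 1.5 times with slide, array row or both as blocks. Dim probes limit Adcy8, Pde4b, Pde6b and Akap5, for which the number of measured arrays is given beside each value.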
